A study of Homo sapiens with 2 samples.

Results

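The first 19.8 Mb of chromosome 19, called 19p here, held 3510 of the 315787 peaks listed for HA-tagged ETV6. The name stands for this span only, which stops short of the longest peak-free stretch of the chromosome. A peak was counted as 19p when its summit lay on chromosome 19 below 19800000 in hg19 coordinates, so no measured height or width entered the choice. The assay was chromatin immunoprecipitation followed by sequencing, done in Reh, a long-established cell line of pre-B acute lymphoblastic leukaemia that is positive for t(12;21). The mapped cells were transduced with pCCL ETV6-HA and the negative control cells with pCCL ETV6 without the tag, and both went through the same pulldown with anti-HA magnetic beads. Each arm is 1 pooled library, and 1 peak list, that of the tagged pool, was analysed. Both arms carry an added copy of ETV6, and the peaks describe the added, tagged protein. Whether the line makes ETV6 of its own was not examined here.

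ETV6 is a transcription factor of the ETS family. Its ETS domain reads DNA sites built around a GGAA core, its pointed domain lets the protein form polymers, and it acts mainly as a repressor through corepressor complexes with histone deacetylases. In mice it is needed for blood formation in the bone marrow, and in some cases of childhood B-cell precursor leukaemia it is joined to RUNX1. Chromosome 19 is known as the human chromosome with the highest gene density, with high GC content and many short genes set close together, and clusters of zinc finger genes interrupt that layout. In RefSeq's GRCh38.p14 annotation, used here for names and counts only, chromosome 19 has 1451 protein-coding genes, against 338 on chromosome 13 and 770 on chromosome 4, both of which are longer. Gene positions inside the regions were not used, because that annotation is of another build than the peaks, so sites are named by position and no sequence is printed.

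Peak height is given as the summit pileup, the number of reads stacked at the summit, recovered from the deposited fold enrichment and p-value of each peak. The lowest pileup in the list was 12 reads and 95.8% of all peaks shared 1 background level of 4.29 reads, at which 1 read changes the fold by 0.189. With 1 pooled list there is no replicate spread, and no test between libraries or regions was made. All intervals are 95% intervals, exact Poisson for densities, Clopper-Pearson for shares and conditional binomial for ratios of densities. Those of median widths are read from the ranked widths at binomial limits. All cover counting error or spread over peaks only, and neighbouring peaks are not independent.

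Listed peaks of tagged ETV6 lay densely over 19p. The list runs to a q of 0.0981, and at a q of at most 0.01 19p had 36.4 peaks per Mb (interval 33.8 to 39.1). With all listed peaks the density was 177.3 peaks per Mb (interval 171 to 183) in 19p. It was 40.4 per Mb (37.6 to 43.2, 807 peaks) in the gene-poor stretch of chromosome 13 from 55 to 75 Mb and 73.2 per Mb (69.5 to 77.0, 1464 peaks) in the gene-poor stretch of chromosome 4 from 20 to 40 Mb. The density of 19p was 4.39 times (4.07 to 4.75) that of the chromosome 13 stretch and 2.42 times (2.28 to 2.58) that of the chromosome 4 stretch. Below, values given for chromosomes 13 and 4 are those of these stretches only. Peaks covered 2.00% of 19p, or 396.7 kb, against 0.402% of the chromosome 13 stretch and 0.742% of the chromosome 4 stretch. The remainder of chromosome 19, up to its last peak, held 5269 peaks, or 134.1 per Mb over a span that includes a stretch of 3134 kb between neighbouring summits with no peak. Of all autosomal peaks 1.11% (1.08 to 1.15) lay in 19p, which is 0.709% of the summed autosomal span.

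The density ratio of 19p over the gene-poor stretches was larger for tall peaks than for all peaks, though not at each step over chromosome 13 and with wide intervals. At 16 reads or more, 19p had 36.6 peaks per Mb, 5.59 times (4.64 to 6.79) the chromosome 13 stretch and 2.84 times (2.46 to 3.28) the chromosome 4 stretch. At 20 reads or more, 19p had 4.75 per Mb from 94 peaks, against 0.900 per Mb from 18 peaks on chromosome 13 and 0.650 per Mb from 13 peaks on chromosome 4. The ratio at that height was 5.27 (3.16 to 9.28) over chromosome 13, below the 6.22 (4.40 to 9.01) at 18 reads or more, and 7.30 (4.07 to 14.2) over chromosome 4. At 25 reads or more, 19p had 2.47 per Mb (1.83 to 3.27) from 49 peaks, against 0.300 per Mb (0.110 to 0.653) from 6 peaks on chromosome 13 and 0.05 per Mb (0.00127 to 0.279) from 1 peak on chromosome 4. At this limit the ratio was 8.25 (3.53 to 23.6) over chromosome 13 and 49.5 (8.48 to 1994) over chromosome 4, the last resting on that 1 peak. At 30 reads or more the chromosome 4 stretch had 0 peaks against 34 in 19p, so the ratio itself is undefined, and the lower end of its interval was 8.81.

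**Figure D1:**
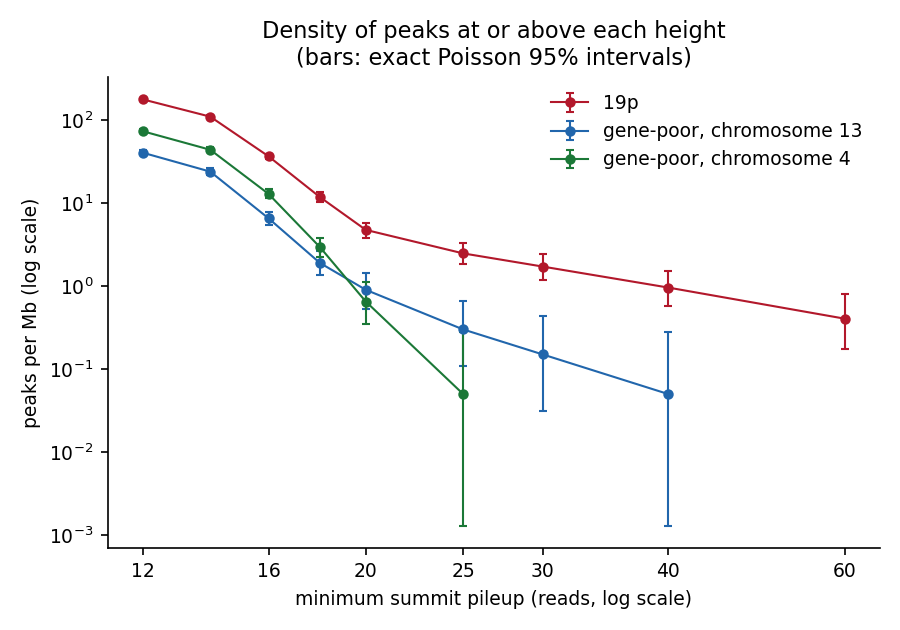
Density of peaks (peaks per Mb, log scale) at or above each summit pileup (reads, log scale) in 19p and the gene-poor stretches of chromosomes 13 and 4, with exact Poisson 95% intervals. Points with 0 peaks are not drawn. The 19p curve lies above the other curves at each height and flattens above 20 reads, where the chromosome 4 curve falls to 1 peak at 25 reads.

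Most 19p peaks were as low as peaks elsewhere. The median pileup was 14 reads (quartiles 13 and 15) in 19p, and the same values were found in both gene-poor stretches. The share of peaks with at least 16 reads was 20.7% (19.3 to 22.03) in 19p, 16.2% (13.8 to 18.96) on chromosome 13 and 17.6% (15.7 to 19.7) on chromosome 4, beside 21.2% of all peaks in the list. At least 20 reads were reached by 2.68% (2.17 to 3.27) in 19p, 2.23% (1.33 to 3.502) on chromosome 13 and 0.888% (0.474 to 1.51) on chromosome 4, beside 2.66% of the whole list. At these heights the 19p shares were near those of the list as a whole.

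At 25 reads or more the share was 1.40% (1.03 to 1.84) in 19p, 0.743% (0.273 to 1.61) on chromosome 13 and 0.0683% (0.00173 to 0.380) on chromosome 4, beside 0.889% of the list. In the rest of chromosome 19 it was 0.949% (0.705 to 1.25), an interval that overlaps that of 19p. The density of such peaks there was 1.27 per Mb (0.944 to 1.68), against 2.47 (1.83 to 3.27) in 19p. Of the 49 strong peaks of 19p, as peaks of at least 25 reads are called here, 48 had the shared background. Counting only peaks at the shared background, the share was 1.37% (1.01 to 1.81) in 19p, 0.248% (0.0300 to 0.892, 2 peaks) on chromosome 13 and 0.0683% (1 peak) on chromosome 4, beside 0.458% of the list. By the same count it was 0.759% (0.543 to 1.03) in the rest of chromosome 19. The other 4 strong peaks of the chromosome 13 stretch lay within 10.3 kb, at chr13:63621172-63631439, with 26 to 39 reads over backgrounds of 4.70 to 7.05 reads. In 19p a background above the shared level was found at 86 peaks (2.45%, 1.96 to 3.02), beside 4.19% of the list, and the highest was 6.11 reads at chr19:5367681-5367834, a peak of 19 reads. The background, read as control coverage near the peak, was thus raised at 1 strong peak of 19p.

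By rank among blocks of its size, 19p stood out more for strong peaks at the shared background than for peaks of all heights and backgrounds. The autosomes were divided from their starts into 134 consecutive full blocks of 19.8 Mb. By number of peaks 19p ranked 9, with 3510 peaks against a median of 1957 and a highest of 4398. By number of strong peaks at the shared background it ranked 1, with 48 against a median of 7. Its share of all such autosomal peaks was 3.36% (2.49 to 4.43, 48 of 1428) at 25 reads or more, 4.24% (2.57 to 6.54, 19 of 448) at 40 reads or more and 4.73% (2.07 to 9.11, 8 of 169) at 60 reads or more, from 0.709% of the span. Blocks were not ranked by strong peaks of any background. Of 2808 strong peaks in the whole list, 1447 had the shared background. A single 250 kb window on the autosomes other than 3, 19 and 21 held 122 strong peaks of any background, against 49 in all of 19p. The first rank is thus given for the shared background only. The ranks are a description of this 1 list.

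In windows of 250 kb, 19p had a median of 45 peaks (quartiles 34 and 54.5, n = 79 windows). The chromosome 13 stretch had a median of 8 (6.75 and 13, n = 80) and the chromosome 4 stretch a median of 15 (9 and 26.25, n = 80). The windows of 19p ranged up to 70 peaks, those of chromosome 13 from 2 to 23 and those of chromosome 4 from 2 to 48. Of the 79 windows of 19p, 76 held more peaks than the fullest window of the chromosome 13 stretch and 32 held more than the fullest of the chromosome 4 stretch. A count of at least 45 was reached by 51.9% of the 19p windows, by 0 windows on chromosome 13 and by 1 window on chromosome 4, beside 18.9% of 9971 windows on the autosomes other than 3, 19 and 21. Nearly all windows of 19p were thus fuller than any of the chromosome 13 stretch, while windows of 19p and of the chromosome 4 stretch overlapped.

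**Figure D2:**
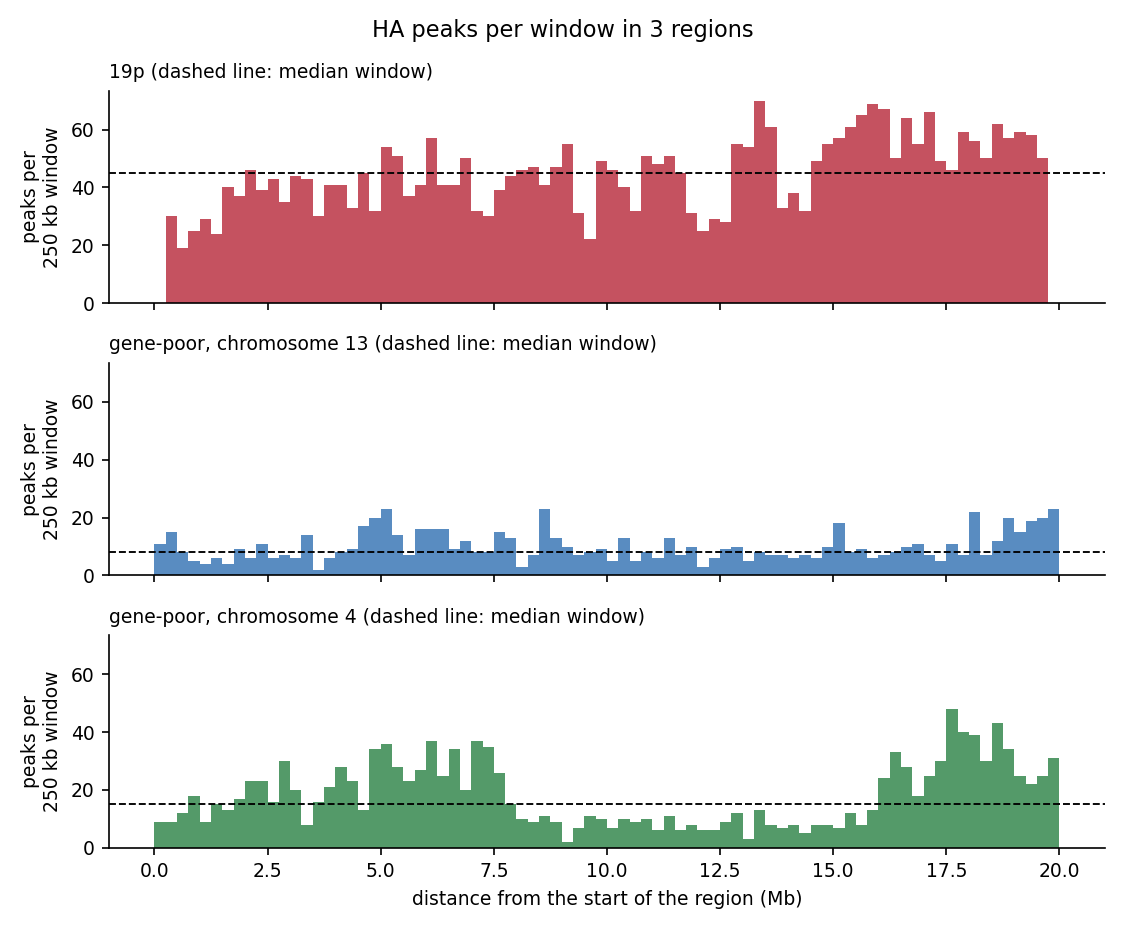
Peaks per 250 kb window against distance from the start of the region (Mb) in 19p (top), the chromosome 13 stretch (middle) and the chromosome 4 stretch (bottom), on 1 shared vertical axis, with dashed lines at the median windows of 45, 8 and 15 peaks. From 14.5 to 19.75 Mb each 19p window holds 46 to 69 peaks, and the chromosome 4 windows show a low middle part.

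The fullest window of 19p, from 13.25 to 13.5 Mb, held 70 peaks and also the tallest site. The next were the windows from 15.75 to 16 Mb with 69 peaks, 16 to 16.25 Mb with 67, 17 to 17.25 Mb with 66 and 15.5 to 15.75 Mb with 65. The first window of the chromosome held 0 peaks, since the first peak started at 279686. Beyond that, the emptiest windows were at 0.5 to 0.75 Mb with 19 peaks, 9.5 to 9.75 Mb with 22, 1.25 to 1.5 Mb with 24, and 0.75 to 1 Mb and 12 to 12.25 Mb with 25 each. The 5 fullest windows all lay beyond 13 Mb, and the emptiest lay both near the telomere and in the middle of the region.

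The last of 4 stretches of 19p, from 15 to 19.8 Mb, had the most peaks, while strong peaks were counted most often between 5 and 15 Mb. The density of all peaks was 135.2 per Mb (125 to 146) from 0 to 5 Mb, 171 per Mb (160 to 183) from 5 to 10 Mb, 174.6 per Mb (163 to 187) from 10 to 15 Mb and 230.4 per Mb (217 to 244) from 15 to 19.8 Mb. Strong peaks numbered 7, 17, 17 and 8 in the same order, or 1.40 (0.563 to 2.88), 3.40 (1.98 to 5.44), 3.40 (1.98 to 5.44) and 1.67 (0.720 to 3.28) per Mb. The intervals of the strong peaks overlap across all 4 stretches, and a difference in their placement was not tested. Those of all peaks do not overlap between the first, the last and the middle stretches. Of the peaks from 15 to 19.8 Mb 0.723% (0.313 to 1.42) were strong, against 1.99% (1.16 to 3.16) from 5 to 10 Mb, and these intervals overlap too. Past the limit of 19.8 Mb the counts were lower. The first 4 full windows of 250 kb, from 20 to 21 Mb, held 27, 27, 11 and 10 peaks, and the next held 35.

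**Figure D3:**
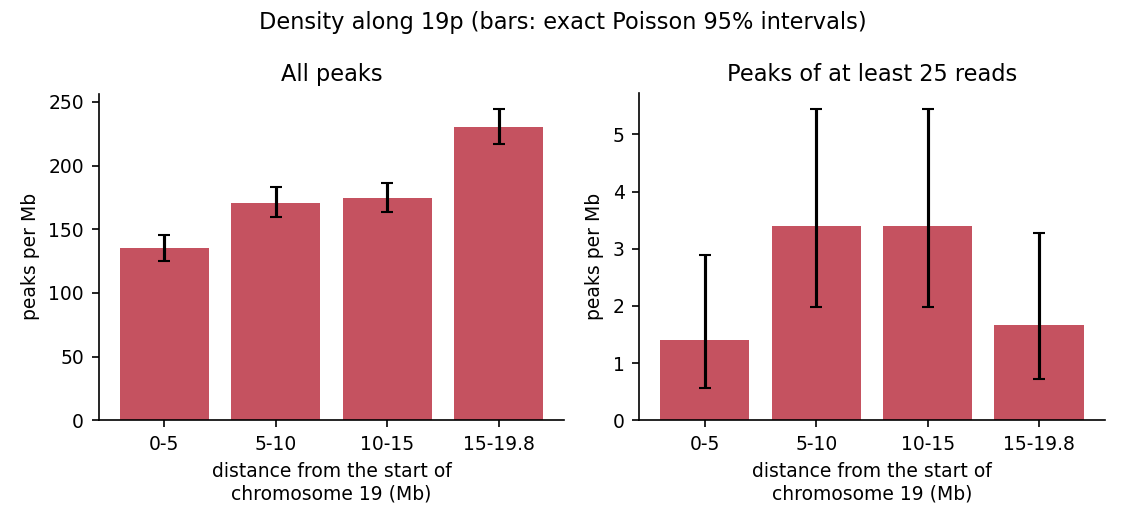
Density of all peaks (left) and of peaks of at least 25 reads (right), both in peaks per Mb, over 4 stretches of 19p by distance from the start of the chromosome (Mb), with exact Poisson 95% intervals. All peaks are densest at 15 to 19.8 Mb with 230.4 per Mb, and strong peaks number 3.40 per Mb between 5 and 15 Mb, with intervals that overlap those of the outer stretches.

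Most of that last stretch lay in an unbroken run of full windows. From 14.5 to 19.75 Mb, each of 21 windows in a row held at least the median of 45, with 46 to 69 peaks. This run, which was chosen after the counts were seen, held 1204 peaks, of which 9 were strong. Across the 78 windows of 19p with peaks, Spearman's rho between the number of peaks and the number of strong peaks was 0.19, and between the number of peaks and the median width it was 0.27. These are descriptions of windows that share 1 library.

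Strong peaks occurred in 27 of the 79 windows of 19p (34.2%), in 2 of 80 windows on chromosome 13 and in 1 of 80 on chromosome 4, beside 10.2% of the windows on the autosomes other than 3, 19 and 21. The 27 windows had a median of 47 peaks (quartiles 43.5 and 54.5), and the 51 windows with peaks but no strong peak had a median of 41 (32 and 54.5). The window from 6.75 to 7 Mb held the most, with 4 strong peaks of up to 33 reads among its 50 peaks. The windows starting at 2 Mb, 6.25 Mb, 7.25 Mb, 8.25 Mb, 10.5 Mb and 11.5 Mb held 3 each.

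The tallest site of 19p was chr19:13266364-13267112. Its summit pileup was 182 reads, its fold enrichment over the shared background 34.6 and its width 749 bp, the widest of the 3510 peaks. It was 2.17 times as tall as the next site and ranked 7 by pileup among autosomal peaks at the shared background. A single other peak lay within 10 kb of its summit, a strong one of 32 reads, with the summits 8.48 kb apart. A further strong pair lay on its telomeric side, at chr19:13210922-13215521, with 37 and 34 reads.

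**Figure D4:**
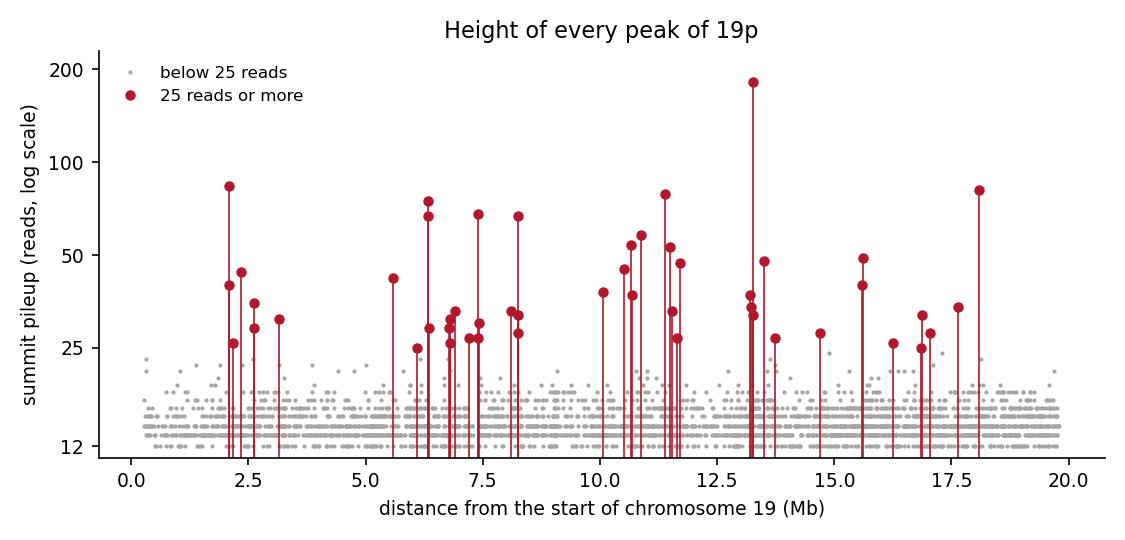
Summit pileup (reads, log scale) of each of the 3510 peaks of 19p against distance from the start of chromosome 19 (Mb). Grey points are peaks below 25 reads and red stems are the 49 peaks of at least 25 reads, of which the tallest, with 182 reads, stands alone above 84 reads.

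The next sites formed a closely graded series. The second was chr19:2085387-2085682 with 84 reads and a fold of 16.1, followed by chr19:18076499-18077201 with 81 reads and chr19:11390544-11390916 with 79 reads. Then came chr19:6324759-6325187 with 75 reads, chr19:7407447-7407695 with 68, and chr19:6340145-6340640 and chr19:8256647-8257030 with 67 each. With the tallest these make 8 sites, all those of 19p with at least 60 reads, and they were spread from 2.09 to 18.1 Mb.

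Sites of 40 to 58 reads followed. They were chr19:10870095-10870705 with 58 reads, chr19:10664554-10665041 with 54, chr19:11495246-11495559 with 53, chr19:15612619-15612874 with 49, chr19:13504142-13504488 with 48, chr19:11707616-11707881 with 47, chr19:10518405-10518633 with 45, chr19:2332348-2332708 with 44 and chr19:5574735-5575062 with 42. The sites chr19:2090137-2090710 and chr19:15580867-15581146 had 40 reads each. The last of the 20 tallest, chr19:10055784-10056116, had 38 reads over a background of 5.64 reads, the only one of the 20 above the shared background, and its fold of 5.87 was the lowest of them. Of the 20 sites 14 lay between 5 and 15 Mb, where 855 (5 to 10 Mb) and 873 (10 to 15 Mb) of all 3510 peaks of 19p lay.

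The tallest sites of the gene-poor stretches were lower. On chromosome 13 they were chr13:59527877-59528103 with 50 reads, chr13:63629944-63630198 with 39 and chr13:63631123-63631439 with 30, the last pair over raised backgrounds of 4.70 and 6.11 reads. On chromosome 4 they were chr4:36312423-36312687 with 27 reads, and chr4:29280639-29280795 and chr4:38635791-38636123 with 24 each. The tallest peak of the chromosome 4 stretch would thus fall below all 20 tallest of 19p, while the tallest of chromosome 13 would stand between those of 53 and 49 reads.

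Width followed height in all 3 regions. Over all peaks the median width was 99 bp (quartiles 72 and 135) in 19p, 89 bp (66 and 118) on chromosome 13 and 92 bp (69 and 124) on chromosome 4. A width of at least 200 bp was found for 6.78% (5.97 to 7.66) of peaks in 19p, 2.97% (1.91 to 4.39) on chromosome 13 and 3.14% (2.31 to 4.17) on chromosome 4, beside 6.22% of the list. Peaks of 19p were wider than those of the gene-poor stretches and close to the list as a whole.

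At matched height the medians of the 3 regions lay within 3.5 bp of each other at 12, 13 and 14 reads and up to 21 bp apart at 15 to 24 reads. At 12 reads the median was 65 bp in 19p, 65 bp on chromosome 13 and 66 bp on chromosome 4. At 14 reads it was 95 bp (95% interval of the median 93 to 99) in 19p, 91.5 bp (86 to 97) on chromosome 13 and 94 bp (89 to 98) on chromosome 4. At 15 reads it was 116 bp (113 to 120) in 19p, 104 bp (94 to 109) on chromosome 13 and 114 bp (106 to 119) on chromosome 4. At 16 to 17 reads it was 143 bp (140 to 147, n = 491) in 19p, 130 bp (120 to 135, n = 93) on chromosome 13 and 131 bp (125 to 136, n = 199) on chromosome 4. The 19p interval lay above that of chromosome 13 at 15 reads and above both others at 16 to 17 reads, and at 18 to 19 reads, with medians of 167.5, 154 and 156 bp in the same order, the intervals overlapped. The 30 peaks of 19p with 25 to 39 reads had a median width of 272 bp and the 19 with at least 40 reads one of 361 bp.

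**Figure D5:**
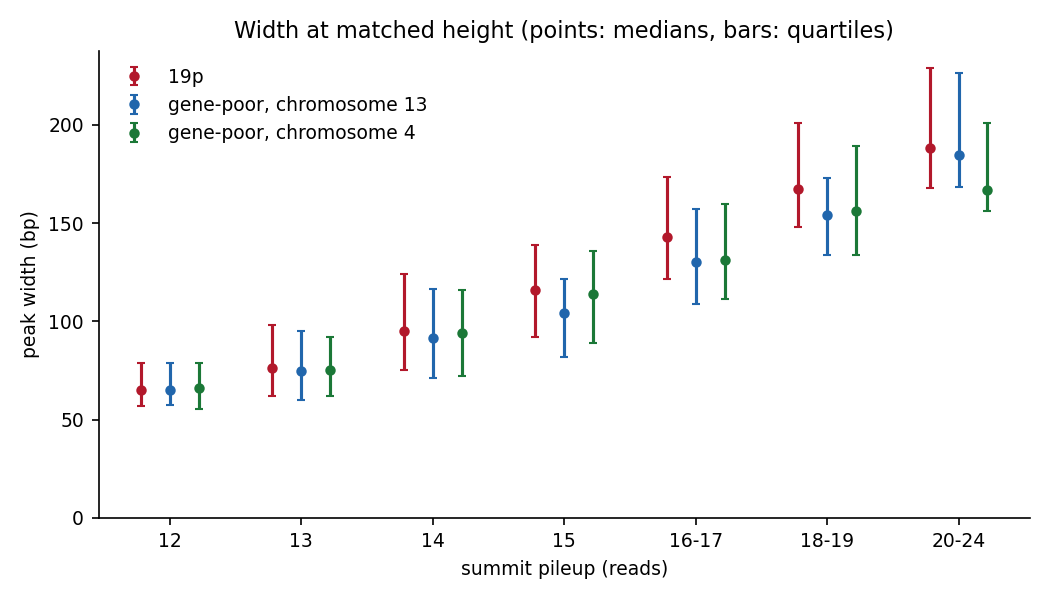
Peak width (bp) by summit pileup class (reads) for 19p and the gene-poor stretches of chromosomes 13 and 4, with points for medians and bars for quartiles. Widths rise with pileup in each region, and within these classes, all below 25 reads, the regions differ by at most 21 bp in median.

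Spacing tracked density. The median distance to the nearest other summit was 1.69 kb in 19p, 6.69 kb on chromosome 13 and 3.53 kb on chromosome 4. A neighbour within 10 kb was found for 96.3% of peaks in 19p, 61.1% on chromosome 13 and 80.1% on chromosome 4. Neighbouring summits were on average 5.56 kb apart in 19p, 24.8 kb on chromosome 13 and 13.6 kb on chromosome 4. Divided by that mean, the median gap was 0.622 in 19p, 0.603 on chromosome 13 and 0.549 on chromosome 4, so the shape of the gap distribution differed less than its scale.

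Apart from the start of the chromosome, where no peak was listed before 279686, the longest stretches without a peak were shorter in 19p than in the gene-poor regions. The longest between 2 peaks, at chr19:7290175-7402726, spanned 112.6 kb and ended at a strong peak of 27 reads, which begins a run of 3 strong peaks. The others were chr19:7006552-7076279 with 69.7 kb, chr19:9538946-9598662 with 59.7 kb, chr19:8679638-8738769 with 59.1 kb and chr19:12283373-12342061 with 58.7 kb. The longest distance between neighbouring summits was 287.3 kb on chromosome 13 and 180.2 kb on chromosome 4. Whether unsequenced or repeated bases fill the 19p stretches was not tested.

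Strong peaks of 19p had a strong neighbour more often than weaker peaks did, though most had none within 10 kb, and they did not have more neighbours in all. Of the 49, 18 (36.7%, 23.4 to 51.7) had another strong peak within 10 kb, against 40 (interval 2.15% to 4.06%) of the 1334 peaks with 12 to 13 reads and 3.45% (2.57 to 4.52) of the 1451 with 14 to 15 reads. The share was 4.28% (2.84 to 6.16) at 16 to 19 reads and 2.22% (0.0562 to 11.8) at 20 to 24 reads. Both members of a close strong pair are counted, so the 18 are not independent. Strong peaks of other regions were not set beside these, so the trait is not shown to be particular to 19p. The mean number of peaks of any height within 10 kb was 3.35 around strong peaks, against 4.03 around peaks of 12 to 13 reads. A strong peak thus had fewer listed neighbours in the mean, and more often a strong one.

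Within 20 kb, 23 strong peaks fell into 10 runs, and the 49 made 36 sites. The closest pairs were chr19:2621767-2622037 with 35 reads and chr19:2622415-2622957 with 29, whose summits were 573 bp apart, and chr19:6801358-6801746 with 26 reads and chr19:6802458-6802680 with 31, at 929 bp. The third, chr19:8256647-8257030 with 67 reads and chr19:8260197-8260429 with 28, had summits 3450 bp apart and belonged to a run of 3 at chr19:8252040-8260429. Runs of 3 were also found at chr19:6324759-6349620, with 75, 67 and 29 reads, and at chr19:7402727-7414055, with 27, 68 and 30 reads. In each of these 3 runs the tallest member had at least 67 reads. The longest distances between neighbouring strong summits were 2.43 Mb, from chr19:3142233 to chr19:5574735, with 406 weaker peaks between, and 1.80 Mb, from chr19:8260429 to chr19:10055784, with 295.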

How the data were processed

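DNA from anti-HA pulldowns of pooled Reh cells was sequenced, 200 ng of virus and 8 µg/mL polybrene having been used for transduction and the cells kept 2 weeks in culture, per the labels' protocols. The genome build was hg19 and the tools named were MACS2 2.1.1.20160309 and Bowtie2 2.2.3, per the submitters' processing notes. Their settings were not given in the sources used here. The authors deposited 1 peak list. The deposited fold is taken as the ratio of summit pileup to background, the deposited −log10 columns as −log10 p and −log10 q, and the deposited score was not used. Its other deposited columns give start, end and summit. That the background comes from the untagged pool is assumed.

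Pileup was solved from fold = (pileup + 1)/(background + 1) and the Poisson tail, and came out whole within 0.05 for 99.9997% of peaks. On 3000 simulated peaks it was recovered in 100%. The depth per library was not used. Windows of 250 kb start at the chromosome start, and the last 50 kb, short of a window, were left out of window values. Members, limits and lists were chosen with earlier results of these data known. Sites named are the 20 tallest of 19p, the 3 tallest of each gene-poor stretch, the 5 fullest and emptiest windows, the 3 closest strong pairs and the 5 longest peak-free stretches; other runs, pairs and gaps were chosen after their values were seen. Alternatives were a stricter q, merging, other limits and windows. The software was scipy 1.17.1, pandas 2.3.3, numpy 2.4.6 and, for plots, matplotlib 3.10.9 under Python 3.11.15.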

Additional observations from a re-analysis of the deposited data

How the results depend on the processing

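Across 44 alternatives, 32 values stayed inside the interval of the reported value (for counts, densities and the density ratio, within 1.5 times of it). The other 12 shifted further. The density ratio stayed above 1 in each of its own alternatives. Keeping peaks with q of at most 0.01 moved the most, by construction, since it keeps taller peaks. It gave 36.4 peaks per Mb, a median width of 155 bp, a median pileup of 17 reads, 13.1% of peaks with at least 20 reads, a nearest-peak distance of 8.01 kb, 9 peaks per window and 3.19% above the shared background, while the density ratio over both gene-poor stretches together, 3.12 with all peaks, was 3.75. Merging peaks within 1000 bp gave a median width of 112 bp and a nearest-peak distance of 3.09 kb. Against the autosomes other than 3, 19 and 21 the density ratio was 1.60. At 20 reads strong peaks numbered 4.75 per Mb, and at least 16 reads were reached by 20.7%. Merging strong peaks within 20 kb, chosen after seeing the data, left 1.82 sites per Mb. The 20 tallest sites shared 19 with the 20 strongest by −log10 q and 19 with those by fold. No paired analysis was possible because there is 1 pooled list, and no replicate could be left out. Depth limits what can be listed: peaks below 12 reads are not in the list.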

Other observations

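The gene-poor stretches were not uniform inside. On chromosome 4 the density was 71.4 peaks per Mb from 20 to 25 Mb, 82.4 from 25 to 30 Mb, 32 from 30 to 35 Mb and 107 from 35 to 40 Mb. On chromosome 13 the same steps from 55 Mb gave 34.8, 47.4, 30.2 and 49 peaks per Mb. The 0 to 5 Mb part of 19p, the sparsest of that region with 135.2 per Mb, was denser than each of these parts.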
